A study of Mus musculus with 12 samples.

Results

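Mouse embryonic stem cells (ESCs) that lack the Meteor enhancer were followed from day 0, in the undifferentiated state, to day 3 of differentiation. The libraries were chosen by genotype alone: all 3 replicates of Meteor knockout (KO) cells at day 0 and all 3 at day 3, which are 6 of the 12 RNA-seq libraries of the series. The other 6 are wild-type (WT) cells of the same days and serve here only as a reference. Every group carried the EomesEGFP reporter, in which EGFP marks expression of the mesendoderm regulator Eomes, and the labels give the strain background as C57BL/6. KO cells carry a deletion of the Meteor enhancer that includes the start of its long noncoding RNA, made with paired Cas9 nickases, after which clones were picked and expanded. How many clones stand behind the 3 replicates is not given in the sources used here, so they may all come from a single clone. The paper reports repeating findings in another deleted clone that was made independently. Day 0 cells grew on mouse embryonic fibroblast feeders in ESC medium, whereas day 3 cells had been aggregated in hanging drops into embryoid bodies, in a serum-containing medium used to start cardiac differentiation. The question put to the KO libraries is what these cells became over a period in which WT cells enter mesendoderm.

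Mouse ESCs in culture sit near the naive state of the pre-implantation epiblast, which is held by LIF and STAT3 signalling and by factors such as Klf4, Esrrb and Tfcp2l1. On release they first pass into a formative state, in which Otx2, Pou3f1, Fgf5 and the de novo DNA methyltransferases are known to be switched on while Pou5f1 (Oct4) is kept. From there, Wnt, Nodal and BMP signals lead cells into the primitive streak, marked by T and Mixl1, and then to mesoderm or endoderm, while cells without these signals tend towards ectoderm and neural fates.

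Levels are counts-per-million values (CPM), with library sizes scaled by TMM, an estimate that is robust to a few highly expressed genes. Between 17455927 and 23910943 reads were counted on genes in the KO libraries, with a median of 19367139, so that 1 read is worth close to 0.05 CPM and values under 1 CPM rest on few reads. The test covered the 15673 genes above 1 CPM in at least 1 of the 12 libraries, 14177 of them protein-coding (PCGs). A gene is said to have risen or fallen when the day 3 level differed from that of day 0 by more than 1 on the log2 scale and edgeR's quasi-likelihood test, with n = 3 per group, gave a p below 0.05 after Benjamini-Hochberg adjustment. Whether replicates came from separate cultures is not stated, so p-values measure the spread between these libraries, part of which may be technical. Raw counts of paired libraries within a KO group differed by a chi-square of 10.58 to 30.19 per gene, more than read counting alone gives. The source of this spread was not tested. RNA was taken from whole cultures, in which fewer cells of a type and less RNA per cell cannot be told apart.

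The deletion was visible in the counts. The transcript 2610509F24Rik (GRCm38, chr9:118402465-118403302, minus strand), annotated at the Meteor locus, had no read in any of the 6 KO libraries, against a mean of 3.87 CPM in WT cells at day 0 and 3.10 CPM at day 3. Its neighbour Platr11 (chr9:118404097-118406099, minus strand, a lincRNA) stood at 0, 0.0551 and 0.0511 CPM in the day 0 KO libraries and at 0 in the 3 day 3 libraries, against 3.67 and 1.53 CPM in WT. Eomes itself (chr9:118478212-118486132, plus strand) lies outside the deletion and is described with the mesendoderm genes. A gene elsewhere was also low in KO libraries of both days. Upf3b, a nonsense-mediated decay factor on the X chromosome (chrX:37091678-37110322, minus strand), stood at 0.224, 0.661 and 0.511 CPM at day 0 and 0, 0 and 0.0416 CPM at day 3, against 52.0 and 51.1 CPM in WT, and its part in the results below was not tested.

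Day 0 KO libraries had the markers of ESCs, with Pou5f1 at 925, 1004 and 1028 CPM, Nanog at 463, 586 and 468 CPM and Dppa5a at 844, 655 and 683 CPM. They also held RNA of genes used here as markers of feeder fibroblasts, though other cells can express some of these genes. The summed level of 18 tested feeder fibroblast markers was 274, 772 and 486 CPM at day 0 and 107, 149 and 168 CPM at day 3, with no overlap, and 12 of the 18 fell while 1, Dcn, rose. Col1a1, the fibrillar collagen chain, went from 40.7, 149 and 77.4 CPM to 4.45, 10.2 and 12.3 CPM. Feeders are named only for the culture of ESCs, and whether some were carried into the embryoid bodies is not stated. A loss of feeder RNA and a change with the day cannot be told apart. Genes of mesenchymal cells that fell are given below with these values in mind.

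From day 0 to day 3, 2118 PCGs rose and 1878 fell in KO cells, which is 14.9% and 13.2% of the 14177 tested. Over all 15673 tested genes the shares were 15.2% and 13.7%, with a median log2 fold change of 0.03, and these are the values against which the gene lists below are read. In WT cells 15.9% of all tested genes rose and 11.6% fell. Among all tested genes, the 3 day 3 libraries lay wholly above the 3 day 0 libraries in 32.5% and wholly below in 30.1%. The lists were written from textbook roles, with earlier results of these data known. Some genes stand in more than 1 of the 32 lists. The largest share of risen members was 85.0%, in the formative list, and 2 lists fell in all their tested members.

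**Figure D1:**
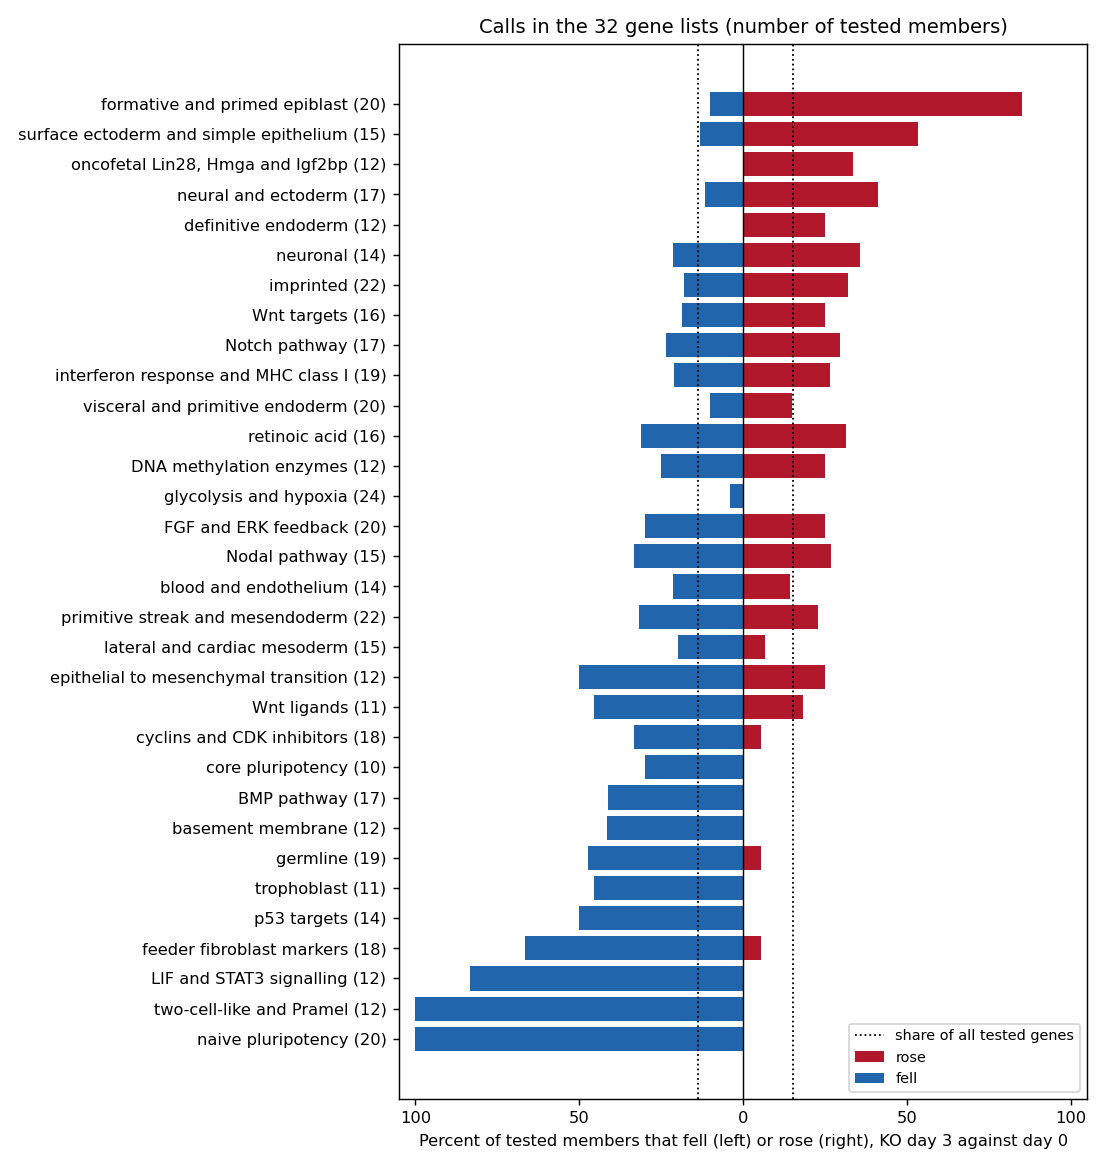
Share of the tested members of each gene list that rose (right, red) or fell (left, blue) from day 0 to day 3 in KO cells, in percent, with the number of tested members in brackets and the shares over all tested genes as dotted lines (15.2% rose, 13.7% fell). Naive pluripotency and the two-cell-like list lie at 100% fallen, and the formative list has the largest share of risen members.

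By the rule for single genes, the 10 PCGs with the largest rise were Cbln4, Spon1, Ldb2, Fgf5, Car14, Slc35d3, Rgl3, Otx2, Snph and Vrtn. Otx2, the homeobox factor of the formative epiblast and later of the forebrain, stood at 4.54, 1.65 and 5.46 CPM at day 0 and 229, 247 and 262 CPM at day 3. Fgf5, the ligand that marks the post-implantation epiblast, went from 0.392, 0.386 and 1.07 CPM to 66.5, 56.1 and 53.2 CPM. Spon1, a secreted matrix protein of the floor plate, went from 0.280, 0.110 and 0.204 CPM to 30, 28 and 44.3 CPM. The rule required days that do not overlap, so the gap between the groups is a description only. Log2 fold changes were 6.03 ± 0.27 (SE) for Otx2, 6.58 ± 0.75 for Fgf5 and 7.39 ± 0.34 for Spon1, with edgeR adjusted p of 2.3e-07, 5.1e-05 and 2.8e-07. The SE of a log2 value is derived here from the test, as its size divided by the square root of the F statistic. Car14, a membrane carbonic anhydrase, rose from 0.994 ± 0.375 (SD) to 94.6 ± 12.6 CPM. Vrtn, known for its part in vertebral number, rose from 2.16 ± 1.40 to 119 ± 2.82 CPM. The others were Slc35d3, a nucleotide sugar transporter family member, the Ras effector family gene Rgl3, the LIM domain cofactor Ldb2, the syntaxin-binding Snph and the cerebellin Cbln4, which ended at means of 35.4, 35.1, 15.9, 15.5 and 11 CPM. Cbln4 had 3 reads over the day 0 group, so no fold is given for it.

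The 10 PCGs with the largest fall were Tnc, Mras, Nipal1, Myo1g, Myo1f, Tgm1, Inhbb, Fcgr2b, Grm2 and Bcl3. Mras, a Ras-family GTPase, stood at 188, 249 and 265 CPM at day 0 and 1.5, 2.45 and 2.91 CPM at day 3, a log2 fold change of -6.68 ± 0.17 (edgeR adjusted p = 2.8e-08). Tgm1, a transglutaminase best known from the skin barrier, went from 89.8, 135 and 110.2 CPM to 0.850, 1.25 and 1.58 CPM. Inhbb, the activin beta B subunit, went from 61.4, 69.1 and 81.2 CPM to 0.750, 0.853 and 0.791 CPM. The days do not overlap in any of them, as the rule required. Tnc, the matrix protein tenascin C, fell the furthest, from 39.9, 132 and 102 CPM to 0.2, 0.910 and 0.749 CPM, with a log2 fold change of -7.49 ± 0.94, or -8.16 without replicate 3 of day 0. At day 0 its highest and lowest libraries were the same as for Col1a1, and the part of feeder cells in its level was not tested. Bcl3, a coactivator of NF-kappaB that LIF is known to induce, went from 63.9 ± 10.6 to 0.866 ± 0.483 CPM, and the unconventional myosins Myo1f and Myo1g ended at 0.487 ± 0.280 and 0.268 ± 0.178 CPM.

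Genes of the naive state fell throughout. All 20 tested members of the naive list fell, with a median log2 fold change of -3.14, and all 20 had day 3 libraries wholly below day 0, as had 30.1% of all genes. Klf4, a reprogramming factor that binds many ESC enhancers, stood at 489, 489 and 339 CPM at day 0 and 3.85, 8.30 and 6.45 CPM at day 3. Tfcp2l1, a target of LIF that sustains self-renewal, went from 706, 908 and 897 CPM to 12.4, 21.2 and 20.9 CPM. Esrrb, an orphan nuclear receptor of the same network, went from 899, 812 and 729.5 CPM to 49.6, 71.5 and 65.7 CPM. Log2 fold changes were -6.15 ± 0.33, -5.54 ± 0.16 and -3.71 ± 0.19, with edgeR adjusted p of 6.4e-07, 3.5e-08 and 4.7e-07. Jam2, a junctional adhesion molecule, fell from 504 ± 41.4 to 10.3 ± 2.23 CPM and Tbx3, a T-box factor, from 339.6 ± 48.8 to 12.4 ± 4.43 CPM. Zfp42 (Rex1), a widely used reporter gene of naive cells, fell from 547 ± 80 to 36.4 ± 5.35 CPM. Nanog fell less, from 463, 586 and 468 CPM to 167, 153 and 178 CPM (log2 fold change -1.59 ± 0.28, edgeR adjusted p = 7.9e-04), so that at day 3 it remained at a mean of 166 CPM. The smallest fall of the list was that of Dppa3 (Stella), from 2.80, 1.27 and 1.28 CPM, already close to the 1 CPM filter, to 0.700, 0.569 and 0.791 CPM, and its call was lost without KO day 3 replicate 1 (log2 value -1.0).

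In WT cells 19 of the 20 naive genes fell, and the median log2 fold change was -3.39. The difference between the KO and the WT response was tested in the same fit as an interaction, with the same thresholds. Over all tested genes 4.93% responded higher and 4.6% lower in KO than in WT cells, and in the naive list 3 of 20 responded higher and 2 lower. The 2 that responded lower were Klf5, a Krüppel-like factor, and Tfcp2l1. Klf5 started from 793 ± 39.1 CPM in KO and 169 CPM in WT and ended at 37.7 ± 14.1 and 16.2 CPM, a difference in response of -1.03 ± 0.26 on the log2 scale (edgeR adjusted p = 0.023). The Klf5 call was lost without WT day 0 replicates 2 or 3, WT day 3 replicates 2 or 3, KO day 0 replicate 1 or KO day 3 replicates 1 or 3 (log2 value -1.08 to -0.81). For Tfcp2l1 the difference was -1.54 ± 0.19 (edgeR adjusted p = 0.0013), and its day 0 means were 837 CPM in KO and 461 CPM in WT. Among the 3 that responded higher was Tdh, the threonine dehydrogenase of ESC metabolism. It went from 249 to 85.5 CPM in KO and from 392 to 37.7 CPM in WT, and its day 0 KO libraries were spread over 163, 200.5 and 384 CPM.

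Of the 10 core pluripotency genes 3 fell and none rose. Pou5f1, the factor shared by naive and primed cells, stood at 925, 1004 and 1028 CPM at day 0 and 735, 696 and 655 CPM at day 3. The groups did not overlap, but the log2 fold change of -0.51 ± 0.19 lay under the minimum set for a call (edgeR adjusted p = 0.04). Sox2, its partner, fell from 436, 379 and 398 CPM to 193, 159.8 and 151 CPM (log2 fold change -1.27 ± 0.07, edgeR adjusted p = 4.7e-07), less than in WT, where it went from 429.9 to 66.0 CPM. The difference in response was 1.43 ± 0.09 (edgeR adjusted p = 1.3e-04). Utf1, a chromatin factor of ESCs, had 157, 273 and 270.4 CPM at day 0 and 242, 319 and 261 CPM at day 3 in KO, with overlapping groups and no call, whereas WT went from 227 to 66.9 CPM. The difference in response was 2.03 ± 0.16 (edgeR adjusted p = 2.4e-04). In all, 4 of the 10 responded higher than in WT, as did 4.93% of all genes, and 1 lower. The latter was the co-receptor Tdgf1 (Cripto), which fell from 1055, 745 and 653 CPM to 209.6, 375 and 230.3 CPM in KO, with WT means of 747 and 669 CPM. Its difference of -1.33 lost the call without WT day 0 replicates 1, 2 or 3, WT day 3 replicates 1 or 2, KO day 0 replicates 1, 2 or 3 or KO day 3 replicates 1 or 3 (log2 value -1.5 to -1.01). Trim28, a corepressor, had a log2 fold change of -1.0 ± 0.09, just under the minimum.

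The formative and primed epiblast list was the one with the largest share of risen genes. Of 20 tested members 17 rose and 2 fell, with a median log2 fold change of 2.79. In WT 10 rose and 1 fell, with a median of 0.98. In KO cells Pou3f1 (Oct6), the POU factor of the epiblast and of neural progenitors, stood at 4.6, 5.84 and 7.20 CPM at day 0 and 128, 174 and 139 CPM at day 3. Sall2, a zinc finger factor, went from 6.89, 6.28 and 9.04 CPM to 239, 222 and 206 CPM. Pim2, a serine/threonine kinase, went from 44.7, 17.9 and 39.7 CPM to 675, 689 and 620.0 CPM. None of these groups overlapped, and the log2 fold changes were 4.66 ± 0.19, 4.95 ± 0.31 and 4.32 ± 0.47 (edgeR adjusted p = 1.7e-07, 1.5e-06 and 3.7e-05). The SoxC factor Sox4, the secreted Wnt modulator Sfrp2 and the zinc finger factor Zic2 rose as well, by 3.30, 2.82 and 3.35. Among those that fell was Tcf15, a factor of the first steps out of the naive state, which was chosen after its values were seen and went from 19.1, 47.8 and 43.0 CPM to 10.8, 13.8 and 9.66 CPM.

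Of the 20 members, 12 responded higher in KO than in WT cells and 1 lower, against the 4.93% and 4.6% over all tested genes. For Otx2 the difference in response was 3.79 ± 0.32 on the log2 scale (edgeR adjusted p = 2.7e-04), for Pou3f1 4.12 ± 0.24 (1.2e-04) and for Sall2 3.30 ± 0.39 (0.0011). Both ends contributed. Otx2 was lower in KO than in WT at day 0 (means of 3.89 against 35.5 CPM) and higher at day 3 (246 against 166 CPM). Pou3f1 had 5.88 against 23.0 CPM at day 0 and 147 against 33.3 CPM at day 3. The same held for the means of Sall2, Sox3, Sox4, Sfrp2, Dnmt3a and Dnmt3b. Zic2, Fgf15 and Pim2 responded higher in KO and started lower, at 11.4, 2.54 and 34.1 CPM against 67.5, 9.96 and 132 CPM in WT. At day 3 the means of Zic2 and Fgf15 were lower in KO (111 against 177 and 16.3 against 22.3 CPM). Pim2 had 661 against 578 CPM. Fgf5 rose in both genotypes, to 58.6 CPM in KO and 111 CPM in WT, and the difference in response did not pass (2.39 ± 0.97, edgeR adjusted p = 0.12). It passed, at 2.56, with a replicate block within each day.

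**Figure D2:**
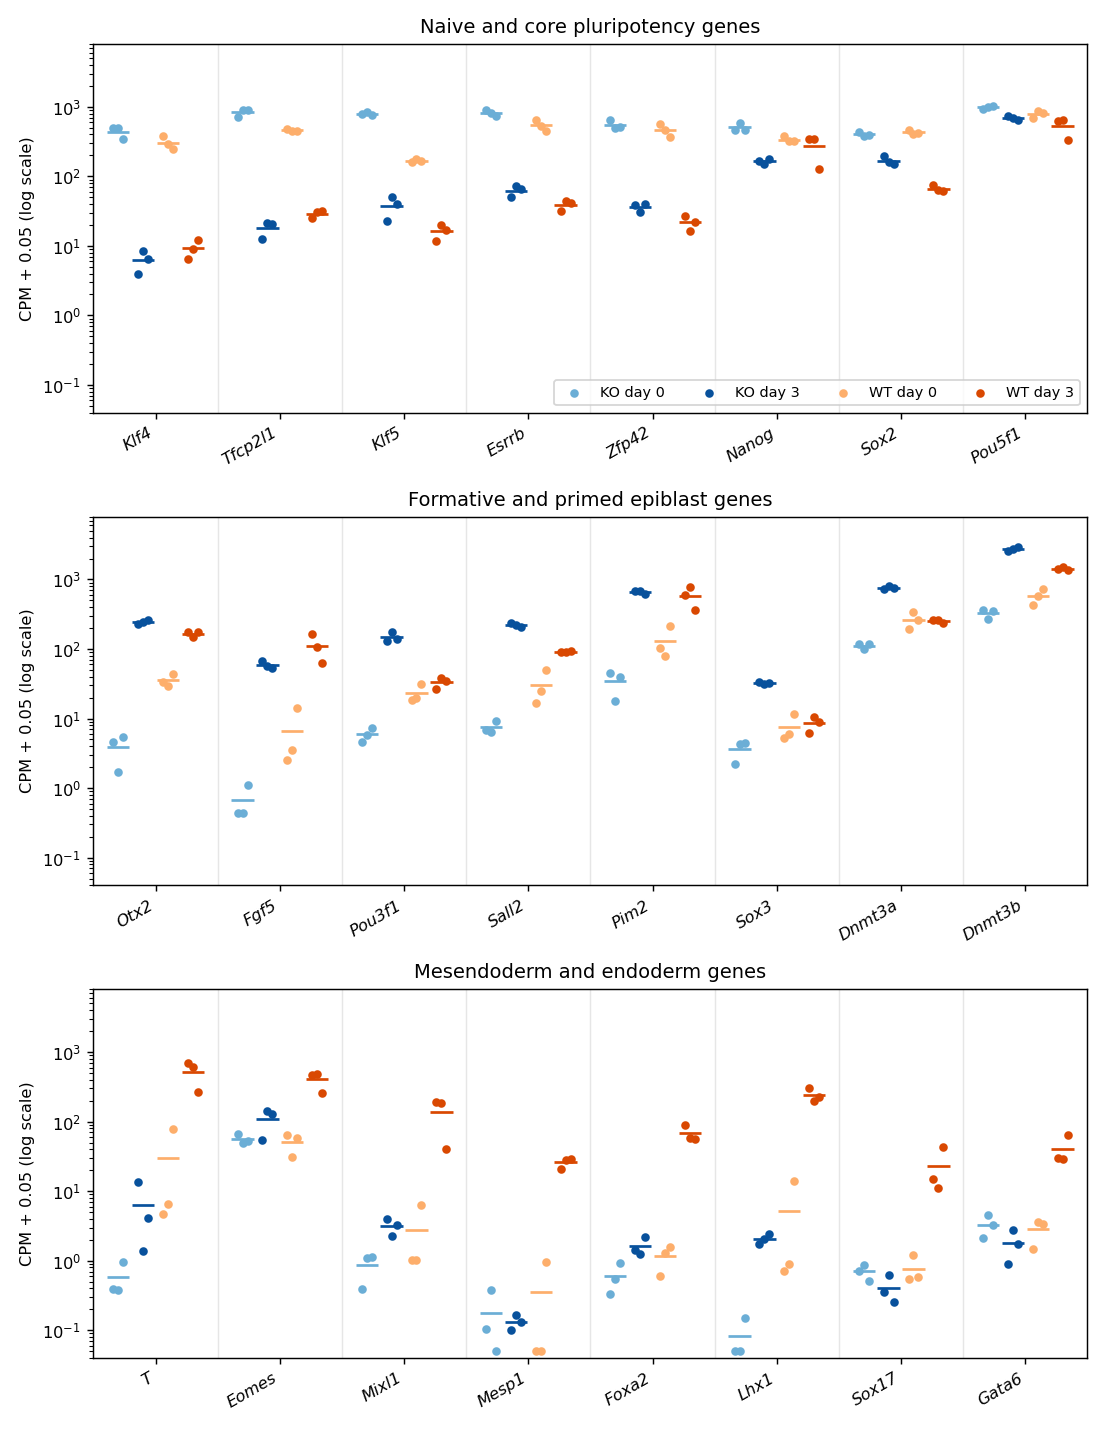
CPM plus 0.05 on a log scale for 24 genes, with the 3 replicates of each group as points and their mean as a line (light blue KO day 0, dark blue KO day 3, light orange WT day 0, dark orange WT day 3). KO cells lose naive genes and gain formative genes from day 0 to day 3. At day 3 their libraries lie below every WT day 3 library for T, Eomes, Mixl1, Mesp1, Foxa2, Lhx1, Sox17 and Gata6.

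The enzymes of DNA methylation split. Dnmt3b, a de novo methyltransferase, stood at 360.1, 271 and 349 CPM at day 0 and 2581, 2706 and 2975 CPM at day 3. Dnmt3a, its paralogue, went from 118, 100.4 and 117 CPM to 740.5, 811 and 745 CPM. The groups lay far apart, with log2 fold changes of 3.07 ± 0.17 and 2.77 ± 0.16 (edgeR adjusted p = 6.0e-07 and 8.6e-07). In WT Dnmt3a passed no test (265 and 252 CPM) and Dnmt3b reached 1424 CPM, and both responses were higher in KO, by 2.83 and 1.74 (edgeR adjusted p = 2.4e-04 and 0.0013). Dnmt3l, a cofactor without catalytic activity, fell from 352 ± 63.9 to 35.1 ± 8.41 CPM. Among the dioxygenases that oxidise methylcytosine, Tet2 fell from 411, 479.6 and 456 CPM to 13.2, 53.2 and 28.5 CPM and Tet1 from 763, 1084 and 1291 CPM to 222, 443 and 455 CPM. The maintenance enzyme Dnmt1, chosen after its values were seen, had 426 ± 19.5 and 403 ± 28.4 CPM and passed no test. In all, 3 of the 12 listed enzymes and readers rose and 3 fell, which is 25.0% each against 15.2% and 13.7% of all genes.

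Genes of the primitive streak gave no common direction. Of 22 tested members 5 rose, 7 fell and 10 did neither (22.7% rose and 31.8% fell, all genes 15.2% and 13.7%). The median log2 fold change was 0.17. It was 0.41 with members that had no read at 1 day set to the bound given by 3 counts over the group. In WT 18 of the 22 rose. Without replicate 1 or replicate 3 of the day 0 KO libraries, 2 and not 5 rose. T (Brachyury), the T-box factor of the streak, had 0.336, 0.331 and 0.919 CPM at day 0 and 13.5, 1.31 and 4.12 CPM at day 3 in KO cells, and did not pass the test (log2 fold change 3.57 ± 1.55, edgeR adjusted p = 0.072). Every day 3 library lay above every day 0 library, but replicate 1 stood well above the other libraries, and without it the log2 fold change was 2.07. The KO change passed in 4 alternatives (the 6 KO libraries alone, with or without the replicate block, no filter on low counts, and DESeq2), at 3.19 to 3.57. In WT cells T went from 4.64, 6.42 and 77.4 CPM to 692, 613 and 269 CPM, and the difference in response on the log2 scale was -1.22 ± 2.15, which did not pass (edgeR adjusted p = 0.75). Without replicate 3 of WT day 0 it was -3.32.

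Eomes had 66.1, 49.3 and 52.0 CPM at day 0 and 54.7, 144 and 129 CPM at day 3 in KO. The days overlapped through replicate 1 of day 3, and the log2 fold change of 0.98 ± 0.39 did not pass (edgeR adjusted p = 0.057). Without that replicate the rise passed, at 1.44, so a single library decided the call. In WT Eomes went from 51.3 to 404 CPM, and the difference in response was -1.99 ± 0.56 (edgeR adjusted p = 0.037), a call that was lost without WT day 0 replicates 2 or 3, WT day 3 replicates 1 or 2, KO day 0 replicates 1, 2 or 3 or KO day 3 replicate 3 (log2 value -2.15 to -1.66). Mixl1, a homeobox factor of the streak, had 0.336, 1.05 and 1.07 CPM and 3.90, 2.22 and 3.21 CPM in KO against 2.74 and 139 CPM in WT. Mesp1, the first factor of cardiac mesoderm, stayed near the level of single reads in KO, at 0.0560, 0.331 and 0 CPM and 0.05, 0.114 and 0.0833 CPM, whereas WT libraries averaged 25.9 CPM at day 3. Of the 5 that rose, none reached 10 CPM in any KO library. Fgf8, a ligand of the streak, ended at 9.0, 1.65 and 3.62 CPM (edgeR adjusted p = 0.018), Wnt3 at 2.85, 1.36 and 2.91 CPM (0.013) and Foxa2 at 1.40, 1.19 and 2.16 CPM (0.018). Lhx1 ended at 1.70, 1.99 and 2.37 CPM and Cer1, a secreted antagonist of Nodal, at 0.450, 0.569 and 0.250 CPM, each from a day 0 group with at most a few reads, so no fold is given. Single libraries decided the first 3 calls: that of Fgf8 was lost without KO day 0 replicates 1 or 3 or KO day 3 replicate 1 (log2 value 3.05 to 4.05), that of Wnt3 without KO day 0 replicate 3 (log2 value 2.14) and that of Foxa2 without KO day 0 replicate 1 or KO day 3 replicate 3 (log2 value 1.20 to 1.27). Lhx1 and Cer1 were left out of this check because of their few day 0 reads, so their calls are not known to be stable. The list count given above without KO day 0 replicate 1 or 3 dropped by more than these losses account for. The WT means at day 3 were 92.2 CPM for Fgf8, 62.4 for Wnt3, 67.8 for Foxa2, 243 for Lhx1 and 78.8 for Cer1.

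A total of 7 of the 22 responded lower in KO than in WT, and none higher, against 4.6% and 4.93% of all genes. Evx1, a homeobox factor of the posterior streak, went from 1.51, 0.772 and 2.4 CPM to 0.750, 0 and 0.375 CPM in KO and from 2.74 to 39.3 CPM in WT, a difference in response of -6.06 ± 0.89 (edgeR adjusted p = 0.0025). Its fall within KO lost the call without KO day 0 replicates 1, 2 or 3 or KO day 3 replicates 2 or 3 (log2 value -2.17 to -1.59). Wnt3a, a ligand that maintains the streak, stood at 0.504, 1.65 and 0.919 CPM at day 0 and 0, 0.0569 and 0 CPM at day 3 in KO, against a WT mean of 2.93 CPM at day 3. Mesp2 and Cdx1 fell in KO, the latter from 1.86 ± 1.01 to 0.0444 ± 0.0419 CPM. The summed level of the list was 182, 176 and 184 CPM at day 0 and 146, 187 and 186 CPM at day 3 in KO, with overlapping days, and 2315, 2054 and 1193 CPM in the WT day 3 libraries.

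Of 12 definitive endoderm genes 3 rose (25.0%, against 15.2% of all genes) and none fell in KO, while 9 rose in WT. Of the 12, 7 responded lower in KO, as did 4.6% of all genes. Sox17, an endoderm-defining factor, had 0.672, 0.827 and 0.460 CPM and 0.300, 0.569 and 0.208 CPM in KO and rose from 0.491, 1.15 and 0.528 CPM to 14.8, 11.2 and 43.2 CPM in WT, a difference in response of -5.82 ± 0.94 (edgeR adjusted p = 0.0036). Gata6, a GATA factor of endoderm and heart, had 2.07, 4.52 and 3.17 CPM and 0.850, 2.67 and 1.71 CPM, against 40.9 CPM in WT at day 3 (difference -4.88 ± 0.48, edgeR adjusted p = 5.2e-04). One of the 3 that rose was Trh, which encodes the precursor of thyrotropin-releasing hormone. It stood at 226, 81.7 and 224 CPM at day 0 and 881, 384 and 570.4 CPM at day 3, with no overlap (log2 fold change 1.83 ± 0.29, edgeR adjusted p = 4.3e-04) and WT means of 734 and 906 CPM, while the other 2 were Foxa2 and Cer1 at the low levels given above.

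In the list of lateral and cardiac mesoderm 1 of 15 tested genes rose and 3 fell in KO (6.67% and 20.0%), whereas 11 rose in WT. The shares over all genes in KO were 15.2% and 13.7%. Of the 15, 7 responded lower in KO, as did 4.6% of all genes. Pdgfra, a receptor of early mesoderm, had 3.25, 8.93 and 5.41 CPM at day 0 and 2.75, 3.64 and 3.29 CPM at day 3 (WT 4.57 and 52.1 CPM). Myl7, an atrial myosin light chain, stayed under 1 CPM in all 6 KO libraries and had 8.26, 7.80 and 46.4 CPM in the WT day 3 libraries, the largest negative difference in response among PCGs of 10 CPM or more, at -7.25 ± 1.09 (edgeR adjusted p = 0.0027). Nkx2-5, the cardiac homeobox gene, had 0.448, 0.331 and 0.511 CPM at day 0 and no read at day 3. The list for blood and endothelium had 2 rises and 3 falls among 14 in KO (14.3% and 21.4%) and 8 rises in WT, and no member passed the test of the difference. One of the 3 was Pecam1, an adhesion molecule that ESCs also express, which went from 75.1, 63.9 and 41.4 CPM to 12.1, 11.1 and 13.2 CPM. The other 2 lost their calls without replicate 1 or 2 of day 0 or replicate 3 of day 3. The WT levels of both lists were uneven. Summed levels in WT day 3 replicates 1, 2 and 3 were 156.5, 167.6 and 644 CPM for the mesoderm list. For blood and endothelium they were 66.4, 64.1 and 495.9 CPM, against 135.3, 108 and 94.1 CPM at WT day 0. Counts of WT rises were not repeated without replicate 3.

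Of 20 genes of visceral and primitive endoderm 3 rose and 2 fell in KO (15.0% and 10%, close to the shares of all genes), and 1 rose without replicate 2 of day 0. Among the markers of this tissue, Afp had 0, 2.16 and 0.416 CPM and Ttr 0.100, 1.99 and 0.957 CPM in the day 3 libraries, with the lowest value in replicate 1 and the highest in replicate 2 for both. Sox7, which marks primitive endoderm, fell from 5.77, 7.99 and 13.5 CPM to 0.700, 1.31 and 0.749 CPM, and Lama1, a laminin chain, from 222, 265 and 247 CPM to 10.1, 23.1 and 17.8 CPM. Of 11 tested trophoblast genes none rose and 5 fell (45.5%, all genes 13.7%). Without replicate 1 or 2 of day 0 or replicate 3 of day 3, 3 fell. The falls were led by Tfap2c, an AP-2 factor also used by germ cells, from 61.8, 26.6 and 27.0 CPM to 2.65, 2.16 and 3.54 CPM. The homeobox genes Rhox6 and Rhox9, members of a tandem family whose copies can share reads, fell to 0.267 ± 0.0930 and 0.265 ± 0.121 CPM.

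Signalling genes were read next, by pathway. All but 2 of the 12 genes of LIF and STAT3 signalling fell (83.3%, all genes 13.7%) and none rose. The median log2 fold change was -3.02, and in all 12 the day 3 libraries lay below day 0, as in 30.1% of all genes. Socs3, the feedback inhibitor that STAT3 induces, stood at 285, 123 and 118 CPM at day 0 and 2.45, 4.04 and 4.70 CPM at day 3 (log2 fold change -5.42 ± 0.37, edgeR adjusted p = 2.2e-06). Lifr, the LIF receptor, went from 151, 133 and 177 CPM to 23.8, 28.3 and 26.3 CPM, further down than in WT (133 to 65.6 CPM), with a difference in response of -1.51 ± 0.24 (edgeR adjusted p = 0.0037). The AP-1 subunit Junb fell by 3.17 on the log2 scale. Spp1 (osteopontin), which is highly expressed in ESCs, fell from 718 ± 115 to 80.6 ± 3.35 CPM and less than in WT. Day 3 cells had been in medium without LIF.

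Of 20 FGF pathway genes 5 rose and 6 fell. Among the ligands, Fgf4, the autocrine ligand of ESCs and chosen after its values were seen, fell from 249, 256 and 216 CPM to 48.2, 61.8 and 54.6 CPM, while Fgf5 and Fgf15 rose, the latter from 2.54 ± 0.668 to 16.3 ± 2.11 CPM. Of the receptors Fgfr3 fell, from 22.7, 22.8 and 18.6 CPM to 1.20, 2.16 and 1.96 CPM. Among inhibitors and targets of ERK, the phosphatase Dusp4 rose from 12.1 ± 4.52 to 85.9 ± 31.6 CPM and the ETS factor Etv4 fell from 176 ± 50.8 to 53.9 ± 7.92 CPM. Etv4 passed no test in WT (79.0 and 76.2 CPM), and the responses differed by -1.70 ± 0.27 (edgeR adjusted p = 0.0036). Etv5, its relative, had 411 ± 32.1 and 279.5 ± 14.3 CPM and did not reach the fold minimum.

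Among Nodal pathway genes 4 of 15 rose and 5 fell (26.7% and 33.3%, all genes 15.2% and 13.7%). The ligand Nodal went from 91.1, 94.7 and 92.5 CPM to 51.2, 28 and 32.4 CPM, with no overlap (log2 fold change -1.37 ± 0.20, edgeR adjusted p = 3.0e-04). Its co-receptor Tdgf1 fell, as given above, and so did its inhibitor Lefty2, from 367 ± 40.9 to 138 ± 25.5 CPM. Lefty1, the other inhibitor, had 134, 103 and 81.0 CPM at day 0 and 125, 78.8 and 121 CPM at day 3, with overlapping groups, whereas in WT it went from 135 to 33.6 CPM, so that the responses differed by 2.12 ± 0.35 (edgeR adjusted p = 0.0039). Gdf3, a TGF-beta ligand of the epiblast, fell from 89.1 ± 14.2 to 27.8 ± 3.20 CPM.

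In the BMP list none of 17 genes rose and 7 fell (41.2%, all genes 13.7%). Of the 17, 7 responded lower in KO than in WT and 1 higher (all genes 4.6% and 4.93%). Bmp4, the ligand that induces posterior mesoderm, stood at 83.8, 69.7 and 120.4 CPM at day 0 and 4.85, 4.78 and 5.12 CPM at day 3, with day 3 libraries close to each other (log2 fold change -4.18 ± 0.60, edgeR adjusted p = 2.4e-04). WT had 13.3, 14.1 and 22.2 CPM at day 0, below every KO library of that day, and 4.34, 7.89 and 55.1 CPM at day 3, where the KO and WT libraries overlapped and replicate 3 stood apart in WT. Id1, the standard target of BMP signalling, went from 91.8, 45.7 and 79.9 CPM to 13.0, 11.8 and 12.7 CPM in KO, while WT had 36.2, 27.3 and 70.4 CPM and 25.4, 21 and 77.1 CPM (difference -2.29 ± 0.46, edgeR adjusted p = 0.0099). Bmp2 went from 0.841, 1.87 and 2.20 CPM to 0.150, 0.569 and 0.250 CPM against 8.54, 9.0 and 54.0 CPM in WT at day 3, and its fall in KO lost the call without KO day 0 replicate 2 or KO day 3 replicate 3 (log2 value -1.95 to -1.54) and in the fit without the replicate block. Without replicate 2 of day 0, 4 of the 17 and not 7 fell. The antagonist Grem1 fell from 5.49, 13.0 and 20.3 CPM to 0.100, 0.569 and 0.500 CPM. Chrd (chordin), an antagonist made by the anterior streak, had 7.89 ± 1.12 and 4.61 ± 0.522 CPM in KO and rose to 37.7 CPM in WT.

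Wnt ligands of the streak stayed low. Of 11 tested ligands 2 rose and 5 fell in KO (18.2% and 45.5%, all genes 15.2% and 13.7%), and 7 rose in WT. None of the 2 rises remained without replicate 3 of day 0, and 1 without replicate 2 of day 0 or replicate 1 or 2 of day 3. Wnt8a had 8.25, 0.796 and 2.46 CPM at day 3 and was highest in replicate 1, the library that was also highest for T and Fgf8, and it passed no test. Wnt5a, a ligand of noncanonical signalling, fell from 2.47, 5.51 and 4.19 CPM to 0.700, 1.36 and 0.874 CPM and rose to 20.0, 19.3 and 59.7 CPM in WT (difference -4.26 ± 0.55, edgeR adjusted p = 0.0015). Of 16 targets 4 rose and 3 fell (25.0% and 18.8%). Axin2, the most general target, had 9.41, 10.4 and 14.6 CPM and 11.3, 5.63 and 6.62 CPM in KO, with overlapping groups, and went from 24.0 to 86.5 CPM in WT (difference -2.45 ± 0.46, edgeR adjusted p = 0.0075). Dkk1, an inhibitor that is itself a target, stayed at or under 1.07 CPM in every KO library and had 29.4, 23.1 and 70.9 CPM in WT at day 3. Rnf43, a ubiquitin ligase that removes Wnt receptors, rose from 0.112, 0.331 and 0.102 CPM to 2.10, 10.4 and 6.16 CPM, Tcf7 from 39.1 ± 2.34 to 126 ± 13.1 CPM, and Notum, a secreted Wnt deacylase, fell from 43.1 ± 16.1 to 3.60 ± 0.998 CPM.

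Notch genes moved both ways, with 5 of 17 rising and 4 falling (29.4% and 23.5%, all genes 15.2% and 13.7%). Notch3 rose from 38.1 ± 9.86 to 206 ± 31.2 CPM and Hes6, a neurogenic relative of the Hes repressors, from 8.25 ± 1.27 to 62.8 ± 6.80 CPM, and both responded higher than in WT. Without replicate 3 of day 0 or of day 3, 3 and not 5 rose. The receptor Notch4 and the ligand Jag1 fell, the latter from 52.9, 46.6 and 57.1 CPM to 17, 9.38 and 13.2 CPM. In the retinoic acid list 5 of 16 rose (31.2%) and 5 fell (31.2%, or 3 genes without replicate 2 of day 3). Stra8, a meiotic gene that retinoic acid induces, went from 39.0, 28.5 and 6.59 CPM to 1.40, 0.967 and 0.833 CPM, the ligand-making enzyme Aldh1a2 from 6.78 ± 2.4 to 0.576 ± 0.232 CPM, and the binding protein Crabp2 rose from 10.3 ± 0.967 to 25.5 ± 1.36 CPM.

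**Figure D3:**
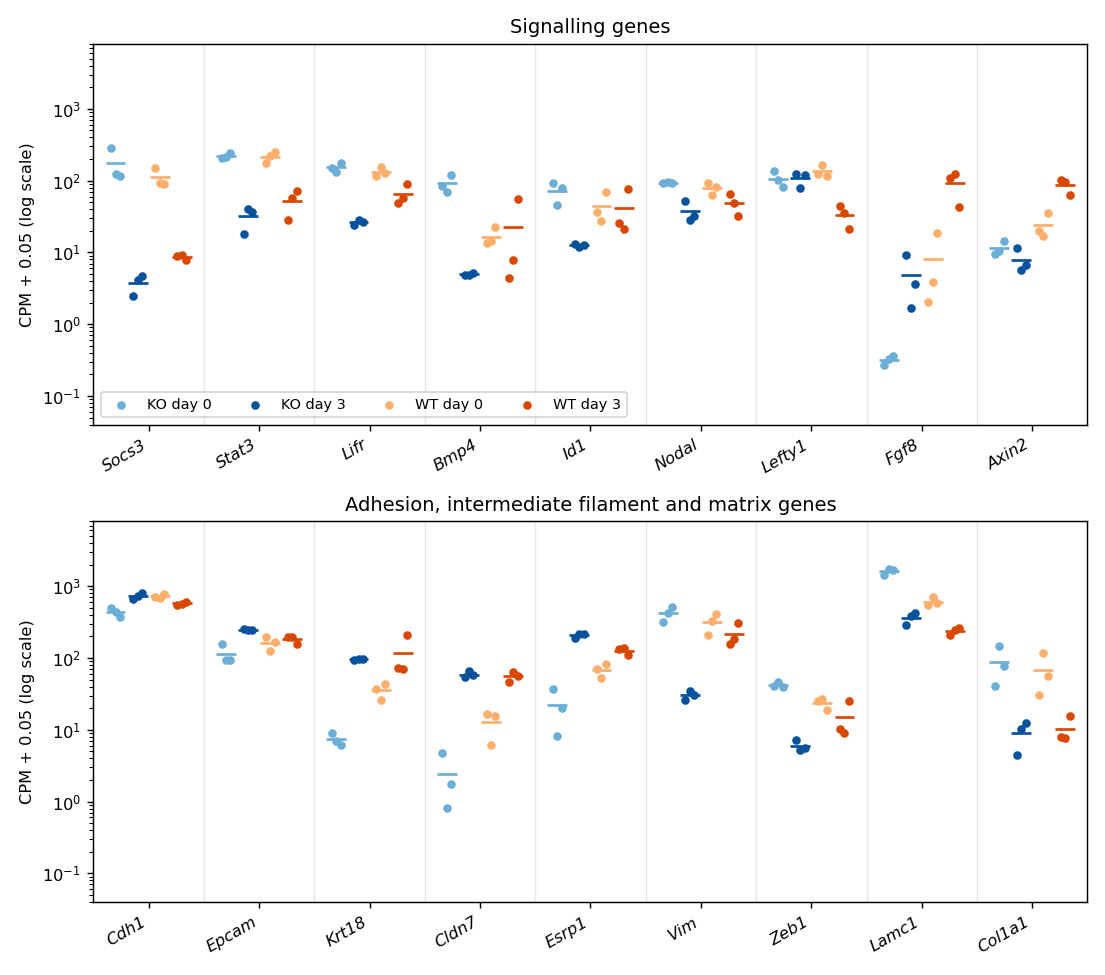
CPM plus 0.05 on a log scale for 9 signalling genes (top) and 9 genes of adhesion, intermediate filaments and matrix (bottom), with the 3 replicates of each group as points and the mean as a line (light blue KO day 0, dark blue KO day 3, light orange WT day 0, dark orange WT day 3). In KO cells Socs3 and Bmp4 fall and Vim drops below every WT library, while Krt18, Cldn7 and Esrp1 rise.

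Neural genes rose in part. Of 17 tested members of the neural and ectoderm list 7 rose and 2 fell (41.2% and 11.8%, all genes 15.2% and 13.7%). Of these 17, 5 responded higher in KO than in WT, as did 4.93% of all genes. Of the 7, Otx2, Zic2 and Sox3 are also in the formative list. Sox3, a SoxB1 factor, stood at 2.19, 4.19 and 4.34 CPM at day 0 and 32.9, 31.6 and 32.3 CPM at day 3 (log2 fold change 3.24 ± 0.27, edgeR adjusted p = 8.1e-06), and in WT at means of 7.53 and 8.57 CPM. The others, among them Nhlh1 at 1.55, 0.739 and 0.125 CPM and Six3 at 0.300, 0.227 and 0.749 CPM, reached 3 CPM in no library, and Six3 had no read at day 0. The defining markers of neuroectoderm did not rise. Sox1 had 2.13, 4.68 and 6.69 CPM at day 0 and 7.70, 4.89 and 4.41 CPM at day 3, Pax6 7.96, 2.48 and 5.41 CPM and 2.90, 2.45 and 3.29 CPM, and both pairs of groups overlapped (edgeR adjusted p = 0.48 and 0.081). Pax6 responded higher than in WT, where it fell from 16.2 to 0.952 CPM (difference 3.23 ± 0.57, edgeR adjusted p = 0.0054). Nes (nestin) went from 33.6, 34.5 and 41.8 CPM to 76.4, 55.0 and 79.3 CPM, with a log2 fold change of 0.93 ± 0.29, just under the minimum (edgeR adjusted p = 0.019). Nkx6-3 fell from 9.75, 14.3 and 12.1 CPM to 0.05, 0.512 and 0.208 CPM.

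Of 14 neuronal genes 5 rose (35.7%, or 3 genes without replicate 2 of day 0) and 3 fell (21.4%). The shares over all genes were 15.2% and 13.7%. Of the 14, 6 responded higher than in WT, as did 4.93% of all genes. Snap25, a protein of synaptic vesicle release, rose from 0.280, 0.276 and 0.153 CPM to 6.55, 5.23 and 7.70 CPM. It rose in WT too, from a higher mean of 1.545 CPM to 6.23 CPM, close to the KO day 3 mean of 6.49 CPM. The neurofilament Nefm rose from 0.953, 1.1 and 1.17 CPM to 14.9, 7.62 and 12.2 CPM. In WT Nefm averaged 4.40 and 7.95 CPM, without a call. Stmn2 fell from 146 ± 39.3 to 49.3 ± 6.02 CPM. Tubb3, the tubulin used to stain neurons, fell from 70.6, 64.7 and 102 CPM to 27.3, 32.8 and 32.2 CPM, but less than in WT (128 to 11.6 CPM, difference 2.10 ± 0.28, edgeR adjusted p = 0.0016). The adhesion molecule Ncam1 fell from 53.7, 56.6 and 56.0 CPM to 3.90, 3.70 and 4.70 CPM. Atcay, a brain-enriched protein, was among the 5 PCGs with the largest positive difference in response, rising from 2.50 ± 0.692 to 14.4 ± 3.49 CPM in KO and falling from 7.89 to 2.09 CPM in WT.

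Genes of simple epithelium rose more often than genes in general, while several of the genes used by migrating mesenchymal cells fell. Of 15 tested genes of simple epithelium and surface ectoderm 8 rose and 2 fell in KO cells (53.3% and 13.3%, all genes 15.2% and 13.7%). Of these 15, 6 responded higher in KO than in WT, as did 4.93% of all genes. Krt18, a keratin of simple epithelia, stood at 8.85, 6.83 and 6.13 CPM at day 0 and 94.8, 96.8 and 97.9 CPM at day 3. Cldn7, a tight junction claudin, went from 4.65, 0.772 and 1.69 CPM to 53.7, 65.3 and 57.4 CPM, and Esrp1, a splicing factor of epithelial cells, from 37.1, 8.27 and 19.9 CPM to 189.9, 217 and 219 CPM. The groups lay apart in all 3, with log2 fold changes of 3.73 ± 0.35, 4.73 ± 0.51 and 3.37 ± 0.39 (edgeR adjusted p = 1.6e-05, 3.5e-05 and 5.3e-05). That of Cldn7 was 5.59 without replicate 1 of day 0. In WT, Krt18 and Cldn7 rose too, from higher day 0 means of 35.5 and 12.8 CPM to 116 and 55.3 CPM. The day 3 means in KO were 96.5 and 58.8 CPM, so for these genes the genotypes differed mainly at day 0. Esrp1 averaged 68.3 and 125 CPM in WT, without a call, and 209 CPM in KO at day 3. Cdh1 (E-cadherin) went from 493, 441 and 374 CPM to 662, 739 and 810.1 CPM, a log2 fold change of 0.75 ± 0.11 that lay under the minimum, and it responded higher than in WT by 1.08 ± 0.16 (edgeR adjusted p = 0.0025), a call that was lost without KO day 0 replicate 3 (log2 value 0.93). Grhl2, a factor that maintains epithelia, rose from 19.4 ± 6.33 to 61.8 ± 3.15 CPM, and WT averaged 42.1 and 30.3 CPM.

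Of the 12 genes of epithelial to mesenchymal transition 6 fell (3 without replicate 2 of day 0 or of day 3) and 3 rose, the risers including the epithelial members Esrp1 and Epcam. Vim (vimentin), an intermediate filament of mesenchymal cells, stood at 319, 428 and 508 CPM at day 0 and 26.1, 34.3 and 30.6 CPM at day 3 (log2 fold change -3.76 ± 0.17, edgeR adjusted p = 2.4e-07). WT cells averaged 315 and 216 CPM, and the responses differed by -3.21 ± 0.22 (edgeR adjusted p = 1.3e-04). Zeb1, a repressor of epithelial genes, fell from 40.4, 45.5 and 39.1 CPM to 7.05, 5.23 and 5.58 CPM, and Snai1, a repressor of Cdh1 in the streak, from 4.43, 5.57 and 5.82 CPM to 2.15, 2.10 and 3.45 CPM while it rose to 25.9 CPM in WT. The Snai1 fall, just past the minimum at -1.06, lost the call without KO day 0 replicate 2 or KO day 3 replicate 2 (log2 value -1.0 to -0.90). Fn1 (fibronectin) fell from 1279 ± 178 to 484 ± 138 CPM. Fibroblasts express Vim, Fn1 and Zeb1, and the 12 feeder markers that fell in KO went down in the same comparison. In WT, where 8 of the 18 feeder markers fell, Vim had a log2 fold change of -0.55 and did not reach the fold minimum. Among the day 0 KO libraries Vim was lowest in replicate 1, as was the feeder sum, but highest in replicate 3, where the feeder sum was not. The part of feeder RNA in these falls was not tested.

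In the basement membrane list none of 12 genes rose and 5 fell (41.7%, all genes 13.7%). Nid1 (nidogen 1) went from 274, 219.6 and 282 CPM to 9.90, 15.9 and 17.2 CPM and Lamc1, the laminin gamma 1 chain, from 1434, 1751 and 1694 CPM to 289, 379 and 424 CPM, with log2 fold changes of -4.21 ± 0.30 and -2.17 ± 0.09 (edgeR adjusted p = 3.0e-06 and 2.0e-07). Lama5, the laminin alpha 5 chain, had 359.8 ± 37.3 and 416 ± 94.3 CPM and passed no test, so the laminin chains changed unequally.

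Genes of the early embryo fell together. All 12 tested members of the 2-cell-like and Pramel list fell, with a median log2 fold change of -4.52. All 12 had day 3 libraries wholly below day 0, as had 30.1% of all genes. Zscan4d, of a cluster that is active in the 2-cell embryo and in a small fraction of ESCs, stood at 27.1, 22.3 and 22.1 CPM at day 0 and 0.450, 0.682 and 0.624 CPM at day 3, and Zscan4c at 18.9, 18.2 and 11.4 and 0.2, 0.569 and 0.291 CPM. Pramel7, which supports naive pluripotency, went from 8.80, 11.5 and 9.76 CPM to 0.150, 0.227 and 0.0833 CPM. All 12 fell in WT too. At day 0 the summed level of the list was 125, 138 and 109.8 CPM in KO and 57.6, 52.5 and 41.9 CPM in WT, so KO cells started higher. The Zscan4, Usp17l and Pramel genes are families of near-identical copies that share reads, so the values of single members are uncertain, and 1 of the 12 had at least 10 counts in every one of the 12 libraries.

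The start sites of Zscan4c, Zscan4d and Zscan4f show how alike the copies are. The 250 bases before the RefSeq start were read from the GRCm38.p6 build for the 11110 of the 14177 tested PCGs that matched by symbol. Below are 80 bases of each promoter, on the strand of the gene, with the TATAAA motif in capitals.
Zscan4c: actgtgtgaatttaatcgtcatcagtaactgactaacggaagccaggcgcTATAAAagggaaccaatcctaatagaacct
Zscan4d: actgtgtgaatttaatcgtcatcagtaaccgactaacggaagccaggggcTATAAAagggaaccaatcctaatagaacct
Zscan4f: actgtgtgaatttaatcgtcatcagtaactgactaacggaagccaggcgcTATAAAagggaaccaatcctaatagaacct
They lie at chr7:11005641-11005720 (plus strand), chr7:11166184-11166263 (minus strand) and chr7:11397834-11397913 (plus strand). TATAAA was found on either strand in 6.35% of all matched promoters and in 4 of the 9 matched members of this list. All 9 also had an observed to expected CpG ratio under 0.4 (median 0.167), against 18% of all promoters (median 0.716). This low-CpG class was common among the changed genes: it held 36.0% of the promoters of PCGs that fell and 26.7% of those that rose, but 13.2% of those that did neither.

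Germline genes, many of which are known to be silenced by DNA methylation as the epiblast forms, fell in 9 of 19 tested members and rose in 1, or in 2 without replicate 1 of day 0 or of day 3 (median log2 fold change -1.0). The shares were 47.4% and 5.26%, against 13.7% and 15.2% of all genes. Hormad1, a protein of meiotic chromosome axes, went from 37.8, 41.7 and 23.2 CPM to 7.55, 10.5 and 7.87 CPM and Dazl, an RNA-binding protein of germ cells, from 26.7, 29.9 and 21.6 CPM to 6.30, 7.28 and 6.29 CPM. Sycp3, of the synaptonemal complex, was the exception and rose from 48.6, 16.4 and 11.8 CPM to 100, 73.8 and 65.0 CPM, a higher response than in WT by 1.86 ± 0.36 (edgeR adjusted p = 0.0079) that lost the call, at 1.71, in the fit without the replicate block. Rnf17, a Tudor protein of germ granules, had 87.8 ± 10.9 and 57.3 ± 7.09 CPM and missed the fold minimum, whereas in WT it went from 75.5 to 22.9 CPM. In WT 12 of the 19 fell, and 5 responded higher in KO, as did 4.93% of all genes.

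The promoters of this list share a short motif. CACGTG, an E-box that reads the same on both strands, occurred in 10 of the 15 matched promoters (66.67%) and in 8.33% of all 11110. Windows of 30 bases around it are shown for 3 genes that fell, Stk31, Sycp1 and Hormad1 (2 sites), and for Sycp3 (2 sites), the one that rose, each on the strand of the gene with the motif in capitals. Stk31 and Sycp1 were chosen after their values were seen.
Stk31: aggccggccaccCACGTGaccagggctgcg
Sycp1: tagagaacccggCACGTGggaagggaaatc
Hormad1 site 1: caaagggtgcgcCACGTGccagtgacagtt
Hormad1 site 2: atgcgcactgcgCACGTGctgaccggagcg
Sycp3 site 1: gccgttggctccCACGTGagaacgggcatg
Sycp3 site 2: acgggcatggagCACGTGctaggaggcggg
The windows lie at chr6:49395472-49395501 (plus strand), chr3:102936177-102936206 (minus strand), chr3:95559608-95559637 and chr3:95559645-95559674 (plus strand) and chr10:88459511-88459540 and chr10:88459532-88459561 (plus strand). Of the 10 genes with the motif 4 fell and 1 rose, and of the 5 without it 3 fell. The other motifs searched on both strands are given for PCGs that rose beside all matched PCGs. The Otx-type motif TAATCC stood in 4.95% of both, and the octamer ATGCAAAT in 1.75% against 1.32%. The Esrrb-type motif TCAAGGTCA stood in 0.19% against 0.22%, the box CCAAT in 32.75% against 36.44% and the GC box GGGCGG in 57.36% against 59.59%. Among PCGs that fell the shares of these 5 motifs, in the same order, were 5.48%, 1.9%, 0.15%, 34.5% and 53.36%. The Esrrb-type shares rest on 3 promoters of PCGs that rose and 2 of those that fell. TATAAA stood in 7.08% of those that rose and 9.72% of those that fell.

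Of 18 cyclins, kinases and inhibitors of the cell cycle 1 rose and 6 fell (5.56% and 33.3%, all genes 15.2% and 13.7%). Cdk4, a kinase of the G1 phase, had 460.1 ± 33.3 and 620.1 ± 38.3 CPM, under the fold minimum. The D-type cyclins Ccnd3 and Ccnd2 fell, the former from 289, 432 and 385 CPM to 65.2, 80.6 and 74.4 CPM, and Ccnd2 from 17, 36.2 and 37.5 CPM to 7.45, 8.13 and 8.49 CPM while WT averaged 55.4 and 80.6 CPM. The inhibitor Cdkn1c (p57), an imprinted gene, fell from 159, 177 and 152 CPM to 26.1, 28 and 27.7 CPM, and WT started lower, at 46.2 CPM. Of 14 tested genes in the list of p53 targets, which includes Trp53, none rose and 7 fell. In 12 of the 14 the day 3 libraries lay wholly below day 0, as in 30.1% of all genes. Perp, a membrane protein of desmosomes, fell from 47.5 ± 7.92 to 7.51 ± 1.32 CPM, Eda2r from 175 ± 53.8 to 36.9 ± 3.20 CPM and Cdkn1a (p21) from 46.5 ± 8.59 to 18 ± 5.28 CPM. The gene Trp53 itself had 466 ± 44.3 and 248 ± 4.94 CPM. The summed level of the 14 was 3038, 2862 and 2352 CPM at day 0 and 1494, 1478 and 1547 CPM at day 3, and in WT 2979, 2573 and 2689.8 and 1549, 1598 and 1674 CPM.

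Hardly any glycolysis or hypoxia gene passed the test between days, and their levels differed between replicates. Of 24 members none rose and 1 fell, Pfkp, a phosphofructokinase subunit, whose call was lost without KO day 0 replicate 1 or KO day 3 replicate 1 (log2 value -1.68 to -1.60), with a median log2 fold change of 0.05. The summed level was 16222, 9479 and 10449.9 CPM in the 3 day 0 libraries and 8966, 16404 and 12904 CPM at day 3. WT libraries of the same replicate numbers had 16056, 9527 and 11135 CPM and 9019, 17144 and 11991 CPM, so that libraries with the same number and day lay close together across genotypes, and number 1 was highest at day 0 and lowest at day 3. Egln3, an oxygen sensor that hypoxia induces, had 51.2, 15.9 and 18.9 CPM and 14.8, 221 and 129 CPM in KO, and Bnip3, a mitochondrial protein, 185, 37.6 and 27.0 CPM and 42.9, 236 and 126 CPM. The feeder sum of day 0 was likewise lowest in number 1 and highest in number 2 in both genotypes.

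**Figure D4:**
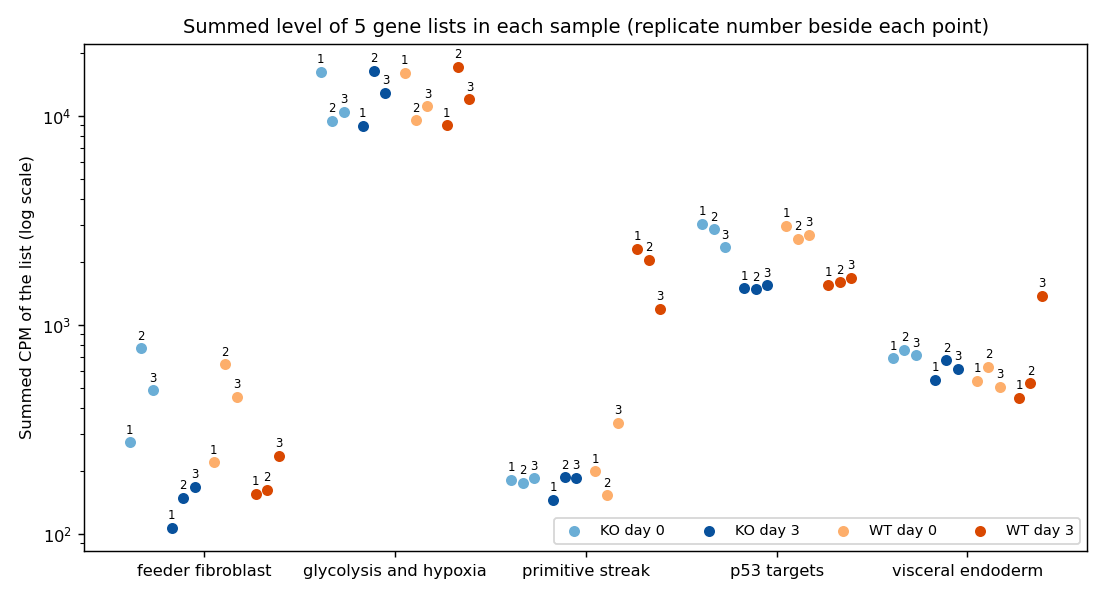
Summed CPM of 5 gene lists in each of the 12 libraries on a log scale, with the replicate number beside each point (light blue KO day 0, dark blue KO day 3, light orange WT day 0, dark orange WT day 3). The feeder and the glycolysis and hypoxia sums follow the replicate number within a day in both genotypes, and the primitive streak sum rises in WT at day 3 alone.

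Among 12 oncofetal genes 4 rose (33.3%, all genes 15.2%) and none fell. Mycl went from 7.45, 4.96 and 5.77 CPM to 79.1, 58.5 and 59.1 CPM, the RNA-binding proteins Igf2bp3 and Lin28b rose from 40.0 ± 13.8 to 221 ± 15.2 CPM and from 44.2 ± 7.91 to 159 ± 16.5 CPM, and Hmga2, a chromatin protein, from 23.3 ± 9.15 to 98.3 ± 12.5 CPM. Mycn had 87.9 ± 40.1 and 126 ± 35.5 CPM without a call but responded higher than in WT, where it fell from 276 to 91.2 CPM. Of 22 imprinted genes 7 rose and 4 fell (31.8% and 18.2%, all genes 15.2% and 13.7%). Peg10, a retrotransposon-derived gene needed in the placenta, fell from 943, 969.5 and 819 CPM to 103, 103 and 115 CPM, whereas WT had 552, 525 and 652 CPM and 319, 377 and 1476 CPM. The difference in response was -3.26 ± 0.57 (edgeR adjusted p = 0.0051), and -2.36 without replicate 3 of WT day 3, the library that stood above WT day 0 while the other 2 lay below it. Igf2, a growth factor of mesoderm and endoderm, had 27.2, 40.3 and 26.4 CPM and 8.20, 6.54 and 5.99 CPM in KO. In WT it had 26.5, 44.6 and 38.3 CPM and 27.3, 36.5 and 979 CPM, high in replicate 3 of day 3 alone, and neither the KO change (edgeR adjusted p = 0.1) nor the difference (0.072) passed. The maternal noncoding RNA Rian rose from 216, 128 and 202 CPM to 838, 563 and 688 CPM. Of 19 genes of the interferon response and MHC class I 5 rose and 4 fell (26.3% and 21.1%). The rises were led by Psmb8, an immunoproteasome subunit, from 0.384 ± 0.252 to 3.86 ± 0.824 CPM, and by Ifit2, from 2.38 ± 1.02 to 14.8 ± 2.11 CPM. Ifitm3 fell from 92.5 ± 2.05 to 20.8 ± 4.56 CPM. Of 14 tested Hox genes, a list added after the data were seen, none rose and 5 fell (35.7%).

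Over all PCGs the KO and the WT day response differed in 1432 of 14177 (10.1%), with 732 higher (5.16%) and 700 lower (4.94%) in KO. The 5 with the largest positive difference among those of 10 CPM or more were Spon1, Atcay, H2-Q2, Pou3f1 and Wt1. Wt1, a zinc finger factor of kidney and mesothelium, rose from 6.33, 4.85 and 11.1 CPM to 29.3, 28.5 and 26.6 CPM in KO and fell from 15.7 to 3.48 CPM in WT (difference 4.09 ± 0.44, edgeR adjusted p = 6.7e-04). H2-Q2, of a multigene MHC family whose copies can share reads, rose from 0.250 ± 0.0486 to 12.9 ± 3.24 CPM. The 5 with the largest negative difference were Myl7, Mesp1, Nrp1, Bmp2 and Dkk1. Nrp1, a co-receptor of semaphorins and VEGF, fell from 4.71, 14.8 and 12.4 CPM to 0.500, 0.227 and 0.666 CPM in KO. In WT it had 2.13, 12.4 and 7.29 CPM and 5.92, 6.02 and 137 CPM, high in replicate 3 of day 3 alone. The difference of -6.69 ± 1.46 (edgeR adjusted p = 0.014) was -4.47 without that library. It lost the call without KO day 0 replicate 2 or KO day 3 replicate 3 (log2 value -6.06 to -5.98), and with limma-voom. Mesp1 rested on few KO reads, and its call was lost without WT day 3 replicates 1 or 2, KO day 0 replicates 1 or 2 or KO day 3 replicates 1, 2 or 3 (log2 value -7.46 to -5.14).

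**Figure D5:**
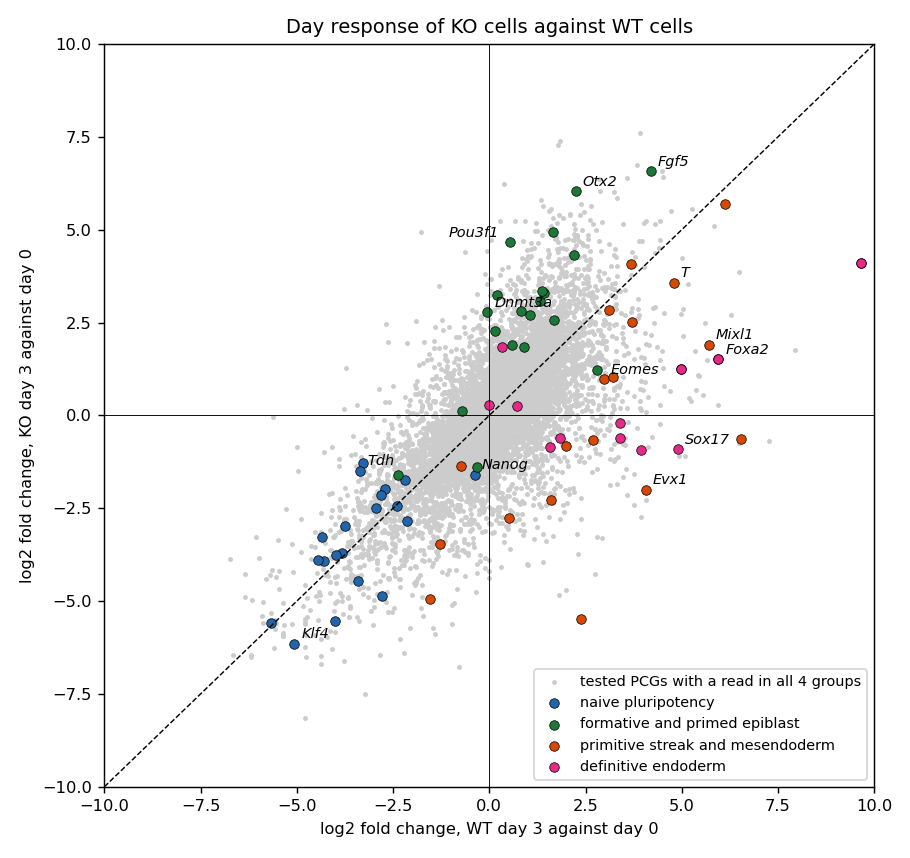
Log2 fold change from day 0 to day 3 in KO cells (y axis) against WT cells (x axis) for the tested PCGs with a read in all 4 groups (grey) and members of 4 gene lists (coloured), with the line of equal response dashed. Naive genes lie near the line in the lower left, most formative genes above it, and most primitive streak and endoderm genes below it on the right.

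Compared per length, Dnmt3b had the highest day 3 level in KO cells among the genes named above, at a mean of 539 RPKM, which is CPM divided by the exon length in kilobases, followed by Trh at 442, Trim28 at 311 and Pou5f1 at 309 RPKM. On the same scale Dppa5a stood at 292, Pim2 at 237, Nanog at 73.9, Otx2 at 58.3 and Pou3f1 at 38.2. Eomes stood at 26.3 RPKM, T at 2.73, Pax6 at 0.246 and Sox17 at 0.0752.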

How the data were processed

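RNA was sequenced from KO and WT cells at day 0 and day 3, with 3 libraries in each of the 4 groups, all taken from the sample labels. The authors deposited raw read counts per gene and library; per the labels and methods, reads were trimmed with Cutadapt 1.3, aligned to GRCm38 with STAR 2.4.2a and counted with HTSeq 0.6.1 on Ensembl 82, and reads with several alignments were not counted. The strand setting is not given in the sources used here, so overlapping and antisense genes are uncertain, and near-identical copies lose reads. The 5 closing rows that name no gene held 47.63 to 50.97% of the reads of a KO library, mostly multi-mapped ones (39.39 to 44.09%), and stayed out of library sizes. Of 46517 genes listed, 46005 had an entry in GENCODE M21, which gave symbols, types and coordinates.

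The fit used edgeR 4.0.16 (R 4.3.3) with TMM scaling and the quasi-likelihood test on genes above 1 CPM in at least 1 library, with all 12 libraries, the group and the replicate number as terms, since the study's methods use a batch factor. Within this fit the KO day contrast, the WT day contrast and their difference were tested, with Benjamini-Hochberg adjustment over all tested genes. A call needed an adjusted p below 0.05 and a log2 fold change above 1 in size. Same-numbered KO and WT libraries of a day shared their deviations (correlations of deviations from the group means 0.388 to 0.753 over 9661 genes), so a block within each day was an alternative for the difference. The scripts were tested on simulated counts. DESeq2 1.42.0, limma 3.58.1 (voom), RLE scaling, other filters, fits of the 6 KO libraries alone and leaving out each library were alternatives.

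Single genes were named by rule: the locus transcripts, Eomes and Upf3b, the 10 largest rises and 10 largest falls of PCGs that reached 10 CPM with days that did not overlap, and from each list the 4 largest changes, the 2 highest levels and members that differed from WT, with 5 PCGs of the largest difference each way and cell type markers. The libraries, gene lists and motifs were chosen with earlier results of these data known. Promoters came from a RefSeq table of GRCm38.p6. Some genes counted in the lists are not reported here by name.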

Additional observations from a re-analysis of the deposited data

Results flagged for a closer look

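The test of the difference between the KO and the WT day response passed for 1432 PCGs, and the values below are the differences on the log2 scale, KO minus WT, of the genes whose difference is given above and passed. Those higher in KO were Pou3f1 at 4.12, Wt1 at 4.09, Otx2 at 3.79, Sall2 at 3.30, Pax6 at 3.23, Dnmt3a at 2.83, Lefty1 at 2.12, Tubb3 at 2.10, Utf1 at 2.03, Sycp3 at 1.86, Dnmt3b at 1.74, Sox2 at 1.43 and Cdh1 at 1.08. Those lower in KO were Myl7 at -7.25, Mesp1 at -7.18, Nrp1 at -6.69, Evx1 at -6.06, Sox17 at -5.82, Gata6 at -4.88, Wnt5a at -4.26, Peg10 at -3.26, Vim at -3.21, Axin2 at -2.45, Id1 at -2.29, Eomes at -1.99, Etv4 at -1.70, Tfcp2l1 at -1.54, Lifr at -1.51, Tdgf1 at -1.33 and Klf5 at -1.03. Each value holds the day 0 difference between the genotypes as well as that of day 3. With 3 libraries per group, single libraries that stand apart were not looked for by a test.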

How the results depend on the processing

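The counts of 2118 rises and 1878 falls stayed within 1.5 times under another scaling (RLE), another tool (DESeq2, limma-voom), fits of the 6 KO libraries alone and no filter on low counts. Without a fold minimum 8192 PCGs changed, of which 4262 rose and 3930 fell, and the KO and WT responses differed in 2359. With at least 10 counts demanded in every library 1184 PCGs fell, 1157 of them among the 1878, since fewer genes were tested. Leaving out each of the 6 KO libraries in turn gave 1929 to 2160 rises and 1714 to 1835 falls. For these counts no WT library was left out.

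The fit without the replicate block called 2098 rises and 1849 falls, and the responses differed in 1312 PCGs and not 1432. Of the named differences those of Klf5 (-1.01), Sycp3 (1.71) and Tdgf1 (-1.43) lost the call in it, and that of Nrp1 (-6.58) with limma-voom. The KO changes of Afp (3.13) and Bmp2 (-2.37) lost the call without the block, and those of Fgf8 (3.77), Nrp1 (-4.42) and Afp (2.31) with limma-voom. Changes of Igf2 (-2.18 and -2.16) and Mixl1 (1.91 and 1.93) passed in the 6 KO libraries alone, without and with the block, and that of Trim28 passed with RLE scaling and DESeq2 (-1.03 in both). With a single KO library left out, changes of Eomes (1.44), Nes (1.06), Pax6 (-1.27), Gata6 (-1.14 and -1.29) and Egln3 (2.84) also passed. The replicate numbers do not pair KO libraries across days: deviations from the group means correlated at -0.006, -0.042 and 0.092 over 9661 genes for the numbers 1, 2 and 3, and 1 of the 3 day 0 libraries correlated best with its own number. With a block within each day the responses differed in 2000 PCGs, and of the named differences that of Fgf5 passed, at 2.56, and no call was lost.

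Of 2233 values of 163 named genes under alternatives, 2176 kept direction and call. The direction turned for 5, all of genes without a call: Lefty1 at -0.02 and -0.26 without replicate 3 of KO day 0 and of KO day 3, Mesp1 at 0.28 with limma-voom and 1.46 without replicate 2 of KO day 0, and Sox1 at -0.20 without replicate 1 of KO day 3. Over single libraries left out, log2 fold changes ranged from -0.26 to 0.32 for Lefty1, from -1.61 to 1.46 for Mesp1 and from -0.20 to 0.89 for Sox1. Of 896 list counts 62 moved by over 1.5 times, 19 of them under the 10-count filter. Depth limits what is said below 1 CPM, where a library holds about 20 reads or fewer.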
